A study of Bos taurus with 6 samples.

Results

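The enzymes that turn farnesyl diphosphate into squalene and squalene into cholesterol were followed in 3 pools of late degenerative bovine embryos and 3 pools of blastocysts. The genes were FDFT1, SQLE, LSS, CYP51A1, MSMO1, NSDHL, EBP, SC5D and DHCR7, and every probe set to which the annotation of the Affymetrix Bovine Genome Array gives one of these symbols was kept, 12 of 24036 in all. They covered 8 of the 9 genes, since no probe set carries the symbol SC5D in the annotation used here. A probe set combines the signals of several short oligonucleotides of a transcript into 1 value, here on the log2 scale, on which a step of 1 doubles the signal. Both groups were produced by in vitro fertilization, from mature oocytes of abattoir ovaries and thawed bull semen, and cultured in synthetic oviductal fluid with albumin that was essentially free of fatty acids. Only embryos that had compacted were kept in culture, and on day 8 those without a proper transition to the blastocyst were graded as late degenerative, those in which the inner cell mass and a blastocoele could be seen as blastocysts. Each pool held 20 embryos of several cows and bulls and was measured on its own array, so the values are averages over embryos and over all cell types in them. In such pools, fewer cells of a type and less RNA per cell cannot be told apart.

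Cholesterol is part of the membranes of animal cells and the starting material of steroid hormones, and cells either make it or take it up. Its synthesis runs from acetyl-CoA through mevalonate to farnesyl diphosphate, which other pathways also use, and squalene synthase is the first enzyme that commits it to sterols. The later enzymes sit in the endoplasmic reticulum. When sterols are scarce there, SCAP escorts the transcription factors encoded by SREBF1 and SREBF2 to the Golgi, where the proteases encoded by MBTPS1 and MBTPS2 release them, whereas INSIG1 and INSIG2 hold them back when sterols are plentiful. In mammals, the genes described here are known targets of these factors.

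Over all probe sets tested, degenerative pool A stood apart, with correlations of 0.933 to 0.938 with every other pool, those of its own group included, whereas the other pools correlated at 0.949 to 0.994 with each other. All 8 genes had lower signals in degenerative embryos, with a median log2 difference of -1.26, where the median over the 8189 genes tested was 0.02. Without degenerative pool A the median over the 8 genes was -1.19. The differences, degenerative embryos minus blastocysts, ran from -1.80 for CYP51A1 to -0.67 for EBP with the brightest probe set of each gene. In 5 of the 8 genes the difference was -1 or beyond, a size that 4.68% of all genes reached in this direction. Of the 12 probe sets, 2 had a single value on all arrays and were not tested. Among the 10 tested, 9 had all 3 degenerative pools below all 3 blastocyst pools, as had 8.93% of all 18937 probe sets tested. The significance analysis of microarrays (SAM), the test named in the methods, called 2 of the 10 as lower at a false discovery rate of 15%, where 0.333% of all probe sets were called as lower. These were the brightest probe set of FDFT1 and that of CYP51A1. At 25% it called 8 of the 10, against 4.3% of all. limma with Benjamini-Hochberg adjustment called 0 of the 10 at an adjusted p of at most 0.15, against 0.0158% of all called as lower, and 9 had an unadjusted limma p under 0.05, against 5.27% of all. SAM called 0 of the 10 at 15% when any single pool was left out, where it called 0 or 1 of all probe sets, and after median centring of the arrays, where it called 12 of all in place of 67. At 25% the count was 0 without degenerative pool B or any 1 blastocyst pool, with 0 to 4 called of all. It was 5 without degenerative pool C, with 1257 called of all, and 8 without degenerative pool A, with 1872.

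**Figure D1:**
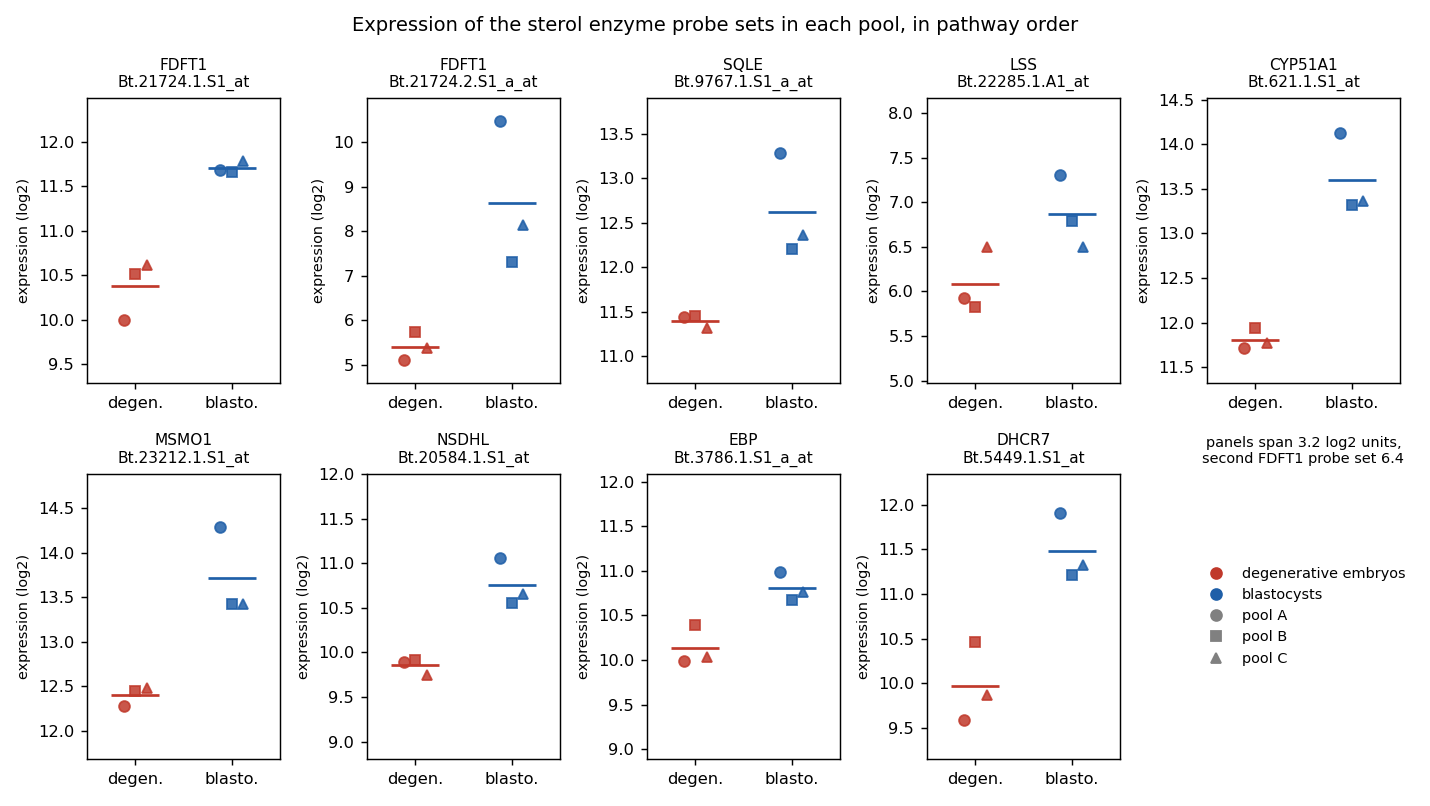
Expression on the log2 scale (vertical axes) of the 9 sterol enzyme probe sets above the floor of the scale, in pathway order, in 3 pools of degenerative embryos (red) and 3 of blastocysts (blue), with a marker shape for each pool letter and lines at the group means. The degenerative pools lie below the blastocyst pools in every panel, by the smallest margin for LSS, and blastocyst pool A is the highest of its group in 8 of the 9 panels.

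FDFT1 encodes squalene synthase, which joins a pair of farnesyl diphosphate molecules. Its brightest probe set, Bt.21724.1.S1_at, was at 10, 10.51 and 10.62 in degenerative pools A, B and C, against 11.68, 11.66 and 11.78 in blastocyst pools A, B and C. The blastocyst pools lay close together and the highest degenerative pool was 1.04 below the lowest of them. Degenerative embryos were 2.52-fold lower with a 95% interval of 1.8-fold to 3.52-fold, a log2 difference of -1.33 ± 0.18 (standard error here and below; limma, adjusted p = 0.363). SAM called it at 15% (permutation p = 0.000882, taken over the relabelings of all probe sets together). Without degenerative pool A it passed limma's threshold, at a difference of -1.14 and an adjusted p of 0.104, as 1 of 33 probe sets called there.

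A second probe set of FDFT1, Bt.21724.2.S1_a_at, was dimmer and gave a larger difference. It was at 5.11, 5.73 and 5.39 in degenerative pools A, B and C, against 10.47, 7.30 and 8.13 in blastocyst pools A, B and C. Here the blastocyst pools were spread over 3.16 log2 units and the degenerative pools over 0.61. The difference of -3.22 ± 0.89 (limma, adjusted p = 0.516), was called by SAM at 25% and ranked 11 of 18937 from the most negative. Its 95% interval reached from -5.56 to -0.89 and thus held the value of the brighter probe set. It was -2.31 without blastocyst pool A and -3.89 without blastocyst pool B. The third FDFT1 probe set, Bt.21724.3.A1_at, lay at the floor of the scale, 2.12, on all 6 arrays and carries no information on either group.

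SQLE, squalene epoxidase, adds the oxygen that prepares squalene for ring closure and is a known point of control of the pathway. Its probe set, Bt.9767.1.S1_a_at, was at 11.44, 11.45 and 11.32 in degenerative pools A, B and C, against 13.28, 12.21 and 12.36 in blastocyst pools A, B and C. The degenerative pools differed by no more than 0.13, whereas blastocyst pool A stood 0.99 above the mean of the other blastocyst pools. The log2 difference was -1.22 ± 0.31 (limma, adjusted p = 0.499). It was called by SAM at 25% and came to -0.88 without blastocyst pool A.

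LSS, lanosterol synthase, folds the epoxide into lanosterol, the first sterol of the pathway. Of its 3 probe sets, Bt.22285.1.A1_at was above the floor, with 5.93, 5.83 and 6.5 in degenerative pools A, B and C and 7.31, 6.79 and 6.5 in blastocyst pools A, B and C. The C pools of both groups were thus nearly equal, 0.0035 apart, and the groups only just failed to overlap. The difference of -0.78 ± 0.29 (limma, adjusted p = 0.58), with a 95% interval of -1.55 to -0.01, was not called by SAM at 15% or 25%. The other LSS probe sets, Bt.22285.2.S1_at and Bt.17801.1.A1_at, were at 2.13 and 2.12 on all arrays.

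CYP51A1 encodes the cytochrome P450 that begins to trim lanosterol by removing a methyl group. Its probe set, Bt.621.1.S1_at, was at 11.71, 11.94 and 11.77 in degenerative pools A, B and C, against 14.13, 13.32 and 13.36 in blastocyst pools A, B and C. The groups were separated by 1.38, the widest gap among the 8 genes on their brightest probe sets. The log2 difference of -1.80 ± 0.25 (limma, adjusted p = 0.369) corresponded to a 3.48-fold lower signal with a 95% interval of 2.2-fold to 5.5-fold, and SAM called it at 15% (permutation p = 0.00094). Over the settings tried it stayed between -1.94 and -1.54.

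MSMO1 and NSDHL act in turn on the methyl groups that remain, MSMO1 by oxidizing them and NSDHL by removing the resulting carboxyl group. MSMO1, probe set Bt.23212.1.S1_at, was at 12.28, 12.45 and 12.48 in degenerative pools A, B and C, against 14.29, 13.42 and 13.42 in blastocyst pools A, B and C. As for SQLE and CYP51A1, the degenerative pools were close together and blastocyst pool A was highest, here by 0.87 over the mean of the other blastocyst pools. Its log2 difference was -1.31 ± 0.27 (limma, adjusted p = 0.467). NSDHL, probe set Bt.20584.1.S1_at, was at 9.89, 9.92 and 9.75 in degenerative pools A, B and C, against 11.06, 10.55 and 10.66 in blastocyst pools A, B and C. Its spread within groups was small, with SDs of 0.09 in degenerative embryos and 0.27 in blastocysts (n = 3 each), and the difference was -0.90 ± 0.16 (limma, adjusted p = 0.411). SAM called both genes at 25%.

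EBP, the sterol isomerase that shifts a double bond within the ring system, differed least. Its probe set, Bt.3786.1.S1_a_at, was at 9.99, 10.39 and 10.03 in degenerative pools A, B and C, against 10.99, 10.67 and 10.76 in blastocyst pools A, B and C. The groups did not overlap, with degenerative pool B 0.28 below the lowest blastocyst pool. The log2 difference of -0.67 ± 0.15 (limma, adjusted p = 0.479), or 1.59-fold lower with a 95% interval of 1.21-fold to 2.09-fold, was called by SAM at 25%. SC5D, the desaturase that acts between EBP and DHCR7, was not analysed here.

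DHCR7 makes cholesterol by reducing its immediate precursor. Its probe set, Bt.5449.1.S1_at, was at 9.59, 10.46 and 9.87 in degenerative pools A, B and C, against 11.91, 11.21 and 11.32 in blastocyst pools A, B and C. Unlike SQLE, MSMO1 and CYP51A1, DHCR7 varied as much among degenerative pools (SD 0.44, n = 3) as among blastocyst pools (SD 0.38, n = 3). The log2 difference was -1.51 ± 0.31 (limma, adjusted p = 0.457), a 2.85-fold lower signal with a 95% interval of 1.61-fold to 5.02-fold, and SAM called it at 25%.

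Each gene was then centred on its mean over the 6 pools, so that the genes could be set side by side. The mean of the 8 centred genes was -0.75, -0.48 and -0.56 in degenerative pools A, B and C, against 0.98, 0.38 and 0.42 in blastocyst pools A, B and C. Blastocyst pool A was the highest blastocyst pool in 7 of the 8 genes, all but FDFT1, and in 8 of the 9 sterol enzyme probe sets above the floor, where it was the highest for 38.9% of the 11316 probe sets with a mean of 5 or more. Degenerative pool A was the lowest degenerative pool in 5 of the 8 genes, pool B in 1 and pool C in 2. Without blastocyst pool A the median difference over the 8 genes was -0.95.

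**Figure D2:**
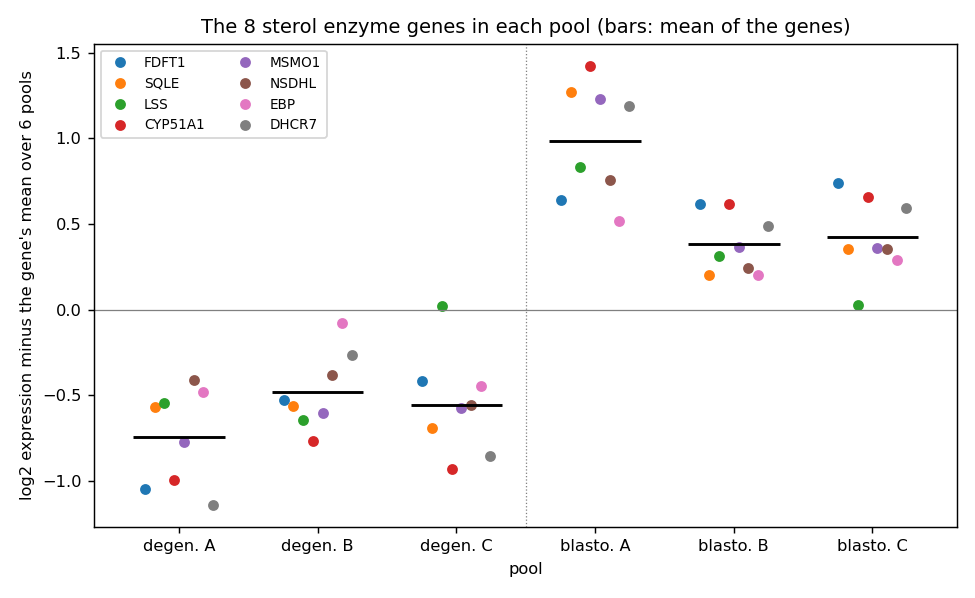
Log2 expression of the 8 sterol enzyme genes minus each gene's mean over the 6 pools (vertical axis), for each pool (horizontal axis), with bars at the mean of the genes. The gene means lie between -0.75 and -0.48 in the degenerative pools and between 0.38 and 0.98 in the blastocyst pools, with blastocyst pool A at 0.98.

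The genes did not differ by the same amount. Relative to the mean of the 8 genes on the same array, CYP51A1 was at -0.25, -0.29 and -0.38 in degenerative pools A, B and C, against 0.44, 0.24 and 0.24 in blastocyst pools A, B and C. It was thus lower in degenerative embryos by 0.61 beyond the mean of the genes. EBP showed the opposite, at 0.26, 0.40 and 0.11 in degenerative pools A, B and C, against -0.47, -0.18 and -0.13 in blastocyst pools A, B and C. So did NSDHL, at 0.33, 0.10 and 0 in degenerative pools A, B and C, against -0.22, -0.14 and -0.07 in blastocyst pools A, B and C. The LSS values went both ways within the degenerative group on this scale, at 0.20, -0.16 and 0.58, against -0.15, -0.07 and -0.40 in the blastocyst pools. CYP51A1 and EBP had the largest and the smallest difference of the 8 genes, so some contrast between them on this scale was built in. These unequal sizes are described without a test.

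Since the groups did not overlap in any of the 8 genes, leaving out a pool could change the size of a difference but not its direction. With 1 pool left out the differences ran from -1.45 to -1.14 for FDFT1 on its brightest probe set, from -1.42 to -0.88 for SQLE, from -0.99 to -0.56 for LSS and from -1.94 to -1.54 for CYP51A1. They ran from -1.45 to -1.02 for MSMO1, from -1.0 to -0.75 for NSDHL, from -0.80 to -0.58 for EBP and from -1.75 to -1.29 for DHCR7. For 7 of the 8 genes, the smallest of these differences came without blastocyst pool A. For FDFT1 it came without degenerative pool A. Taken by pool letter, the difference was largest for the A pools in all 8 genes, between -2.42 for CYP51A1 and -1.0 for EBP. It lay between -1.38 and -0.28 for the B pools, and in the C pools it reached -1.59 for CYP51A1 and was near 0 for LSS.

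**Figure D3:**
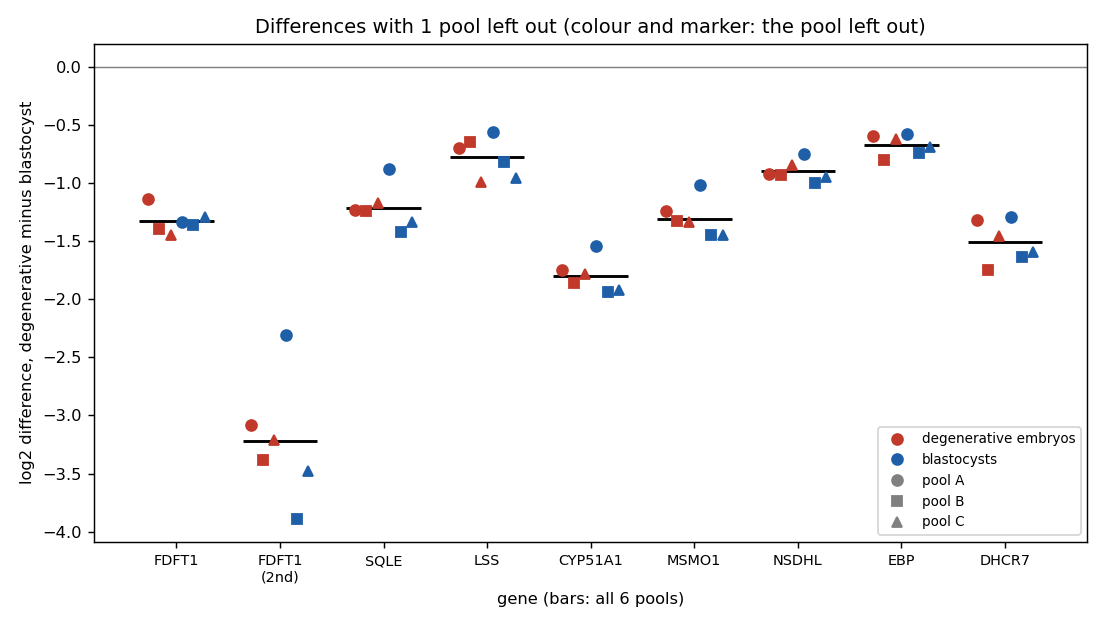
Log2 difference, degenerative embryos minus blastocysts (vertical axis), of the 9 sterol enzyme probe sets above the floor (horizontal axis), with black bars for all 6 pools and points for the differences with 1 pool left out, colored and shaped by the pool left out. The second FDFT1 probe set moves most, from -2.31 without blastocyst pool A to -3.89 without blastocyst pool B.

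Blastocyst pool A also stood apart in the control probe sets of the array. These measure the 3′ and the 5′ end of a few common transcripts and so reflect how far the labeled RNA reaches. The study linearly amplified the RNA of every pool for the arrays, with a poly-dT primer, which binds at the 3′ end. The values therefore do not measure the state of the embryo RNA alone. The 3′ minus 5′ signal of EIF4E, a translation initiation factor, was 9.87, 9.80 and 9.13 in degenerative pools A, B and C, against 6.60, 8.59 and 8.36 in blastocyst pools A, B and C. The degenerative pools were all above the blastocyst pools. For GAPDH it was 2.51, 2.52 and 2.48 in degenerative pools A, B and C, against 1.83, 2.89 and 2.57 in blastocyst pools A, B and C, and the groups overlapped. They also overlapped for PPIB, with means of 2.83 ± 0.36 in degenerative embryos and 2.46 ± 0.31 in blastocysts (SD, n = 3 each), and for EEF1A1, with 0.68 ± 0.15 in degenerative embryos and -0.37 ± 1.26 in blastocysts (SD, n = 3 each). In all 4 transcripts blastocyst pool A had the smallest value of the 6 pools, at -1.65 for EEF1A1 and 2.13 for PPIB. The actin control ran the other way, at 2.29, 4.94 and 3.08 in degenerative pools A, B and C, against 5.37, 6.65 and 5.92 in blastocyst pools A, B and C. Its 5′ probe set lay at the floor, so these values follow the 3′ signal, and it is not plotted. The part of transcript coverage in the sterol enzyme differences was not tested. The values without blastocyst pool A given above do not test it, as EIF4E still separated the groups in the remaining pools.

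**Figure D4:**
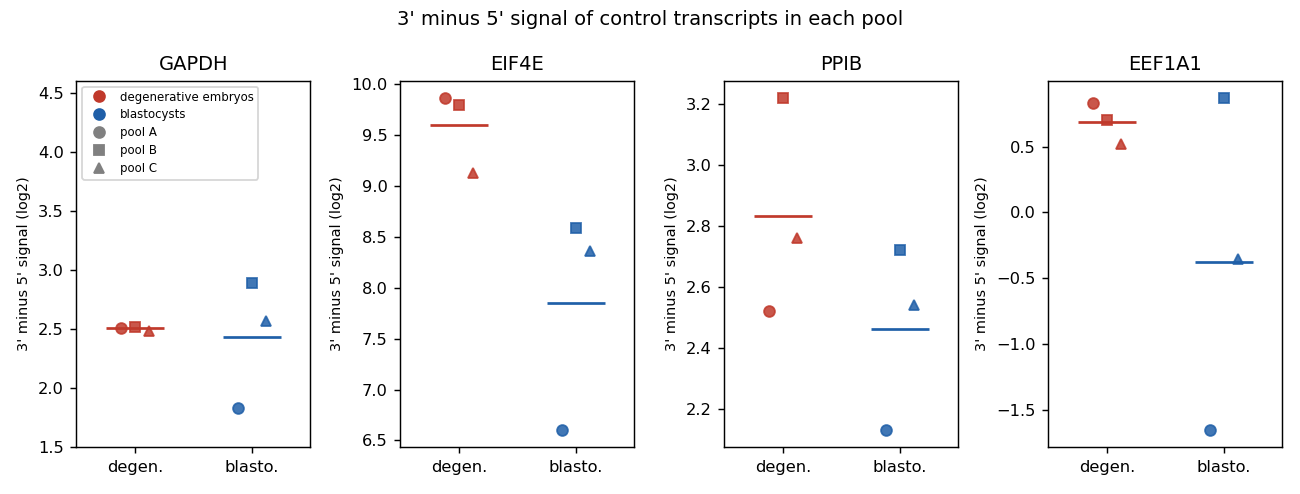
Signal of the 3′ minus that of the 5′ control probe set (vertical axes, log2) for 4 transcripts in 3 pools of degenerative embryos (red) and 3 of blastocysts (blue), with lines at the group means. Blastocyst pool A (blue circle) is lowest in every panel, and the groups are separate for EIF4E alone.

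Values of other cell types and of reference genes were set beside these differences. Of 10 genes that mark cumulus and granulosa cells, which surround the oocyte and make steroids, 8 could be tested, 4 had lower and 3 higher means in degenerative embryos, 1 (INHA) did not differ, and limma and SAM at 25% called 0 of them, with 0 at an unadjusted limma p under 0.05. Their summed signal lay between 11.88 and 12.39 on the log2 scale in degenerative pools and between 12.13 and 12.56 in blastocyst pools. Of the defining markers, FOXL2 and AMH had a single value on all arrays, INHA was at 2.12, and FSHR was between 2.12 and 2.19 in degenerative pools and between 2.19 and 3.03 in blastocyst pools. Brighter genes of this list went both ways. HSD3B1, a steroid dehydrogenase, was at 6.12, 11.52 and 11.12 in degenerative pools A, B and C, against 11.51, 11.64 and 12.09 in blastocyst pools A, B and C. PTX3, of the cumulus matrix, was at 2.12, 8.36 and 7.22 in degenerative pools A, B and C, against 2.25, 2.12 and 4.27 in blastocyst pools A, B and C. HAS2 differed by 0.45, STAR by 0.31 and TNFAIP6 by -0.82, all with overlapping groups. CYP19A1, which makes estrogens, was between 2.55 and 2.75 in degenerative pools and at 2.60, 4.87 and 6.69 in blastocyst pools. Among embryonic lineages, the trophectoderm keratin KRT18 lay between 15.17 and 15.52 in degenerative pools and between 15.26 and 15.65 in blastocyst pools. POU5F1, from the inner cell mass list, lay between 12.65 and 13.32 in degenerative pools and between 12.34 and 12.60 in blastocyst pools. All 3 genes tested of that list were higher in degenerative embryos, with none called. Whether these genes are confined to the inner cell mass in such embryos was not tested. Of 5 hypoblast genes tested, GATA4 differed by 1.17, COL4A1 by 0.62, FN1 by 0.23, GATA6 by -0.05 and PDGFRA by -0.03, all with overlapping groups and none called. Of the 3 trophectoderm genes tested, KRT18 differed by -0.06 and KRT8 by -0.04, whereas PTGS2, which makes prostaglandins, was called by SAM at 25% with a difference of -1.0. CDX2, GATA3, GATA2 and TFAP2C of the trophectoderm list were not tested. Nor were NANOG, FGF4 and PRDM14 of the inner cell mass list or SOX17 of the hypoblast list. All 4 oocyte genes tested had higher means in degenerative embryos, led by ZP2 at 6.16, 3.93 and 3.0 in degenerative pools A, B and C, against 2.97, 2.95 and 2.97 in blastocyst pools A, B and C, and none was called. Of the reference genes of the methods, ACTB differed by -0.17, RPLP0 by 0.17 and GAPDH by 0.45, each with an adjusted p of at least 0.566 from limma. The degenerative pools of GAPDH, between 13.26 and 13.75, all lay above its blastocyst pools, between 13.00 and 13.22, and those of ACTB, between 14.71 and 14.91, all lay below its blastocyst pools, between 14.94 and 15.07. The part of cell composition in the sterol enzyme differences was not tested.

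Upstream of squalene, 7 of 9 genes of the mevalonate arm were tested. With the brightest probe set of each, 6 of the 7 were lower and 1, GGPS1, was higher in degenerative embryos, with a median difference of -0.64. limma called 0 of them, with 3 at an unadjusted p under 0.05, and SAM called 3 as lower at 25%. HMGCS1, which makes the precursor of mevalonate, was at 14.54, 14.76 and 14.74 in degenerative pools A, B and C, against 15.37, 15.12 and 15.07 in blastocyst pools A, B and C, a difference of -0.51 (adjusted p = 0.478 from limma). Its dimmer probe set differed by -2.80, so for HMGCS1, as for FDFT1, the dimmer probe set gave the larger difference. The dimmer probe sets of MVK went both ways, at -1.19 and -0.05 against -0.54 for its brightest. FDPS, which makes farnesyl diphosphate, the substrate of FDFT1, was at 11.26, 11.62 and 11.26 in degenerative pools A, B and C, against 13.06, 12.02 and 12.19 in blastocyst pools A, B and C (difference -1.04, adjusted p = 0.537 from limma). PMVK, phosphomevalonate kinase, differed by -1.59 (adjusted p = 0.548 from limma). GGPS1, which directs farnesyl diphosphate away from sterols, had a difference of 0.16. Of 6 further enzymes after squalene, only TM7SF2, a sterol reductase, was named by a probe set, and its pools overlapped, at 3.71, 5.14 and 3.94 in degenerative pools A, B and C, against 6.59, 4.41 and 4.58 in blastocyst pools A, B and C.

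**Figure D5:**
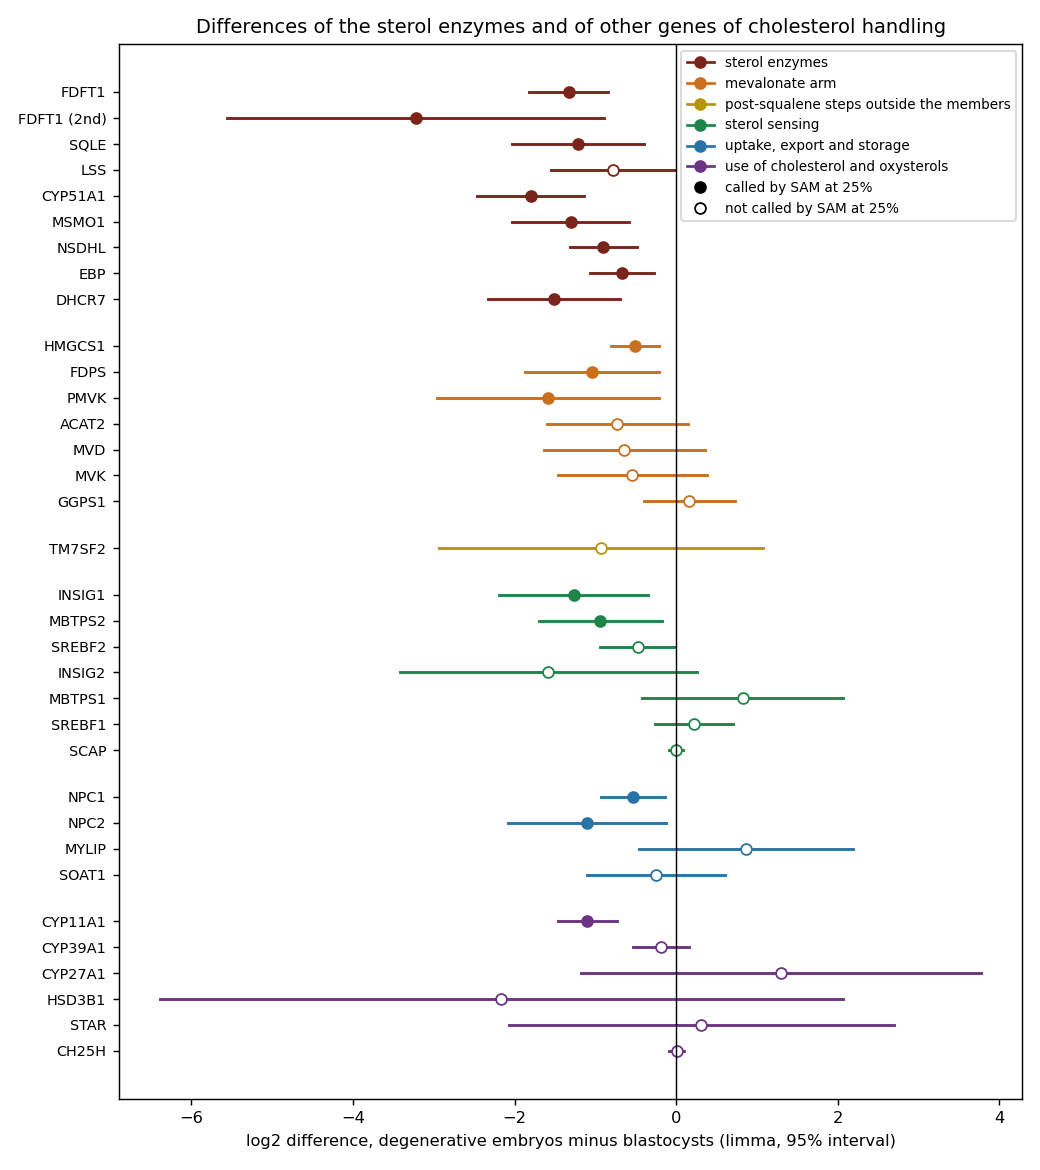
Log2 difference, degenerative embryos minus blastocysts (horizontal axis, with 95% intervals from limma), of the sterol enzymes and of other genes of cholesterol handling, grouped by role and color, filled where SAM called the probe set at 25%. All 9 sterol enzyme probe sets shown lie below 0, 8 of them filled, whereas the groups below them hold genes on both sides of 0, apart from the post-squalene steps outside the members, where TM7SF2 alone is shown.

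Among the 7 genes that sense sterols, 4 had lower and 2 higher means and SCAP did not differ, with 0 called by limma (3 at an unadjusted p under 0.05, all lower) and 2 called as lower by SAM at 25%. INSIG1 was at 9.57, 9.20 and 9.69 in degenerative pools A, B and C, against 11.43, 10.28 and 10.55 in blastocyst pools A, B and C (difference -1.27, adjusted p = 0.516 from limma). It thus shared the order of blastocyst pools with most of the sterol enzymes, pool A highest. MBTPS2 differed by -0.94 (adjusted p = 0.537 from limma). MBTPS1, which encodes the other protease of that step, had its degenerative pools above the blastocyst pools, at 11, 9.61 and 9.38 in degenerative pools A, B and C, against 9.26, 9.22 and 9.05 in blastocyst pools A, B and C (difference 0.82, adjusted p = 0.676 from limma). INSIG2 had 3 probe sets, all with the degenerative pools below the blastocyst pools. The brightest differed by -1.58, with degenerative pool A at 6.58 against 8.67 and 9.01 in the other degenerative pools and 9.63 to 9.71 in blastocyst pools, and was not called. The others differed by -1.27 and -0.86, with adjusted p-values of 0.391 and 0.358 from limma. Their unadjusted limma p-values were 0.00226 and 0.000945, the latter smaller than the 0.00104 of FDFT1 on its brightest probe set. The counts of calls above rest on the brightest probe set of each gene and leave these others out, and their SAM calls are not given here. SREBF2 was dim, between 2.75 and 3.2 in degenerative pools and between 3.22 and 3.66 in blastocyst pools, with a difference of -0.47. The brightest probe set of SREBF1 overlapped between groups, at 10.44, 10.24 and 10.49 in degenerative pools A, B and C, against 9.81, 10.41 and 10.28 in blastocyst pools A, B and C. SCAP was at 2.65 on all arrays with its brightest probe set, so no comparison could be drawn from it.

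Of 9 genes for the uptake, export and storage of cholesterol, 4 were tested. SAM at 25% called NPC1 (difference -0.53) and NPC2 (difference -1.11), which together move cholesterol out of lysosomes, and limma called 0, with these 2 at an unadjusted p under 0.05. MYLIP, a ubiquitin ligase, was higher by 0.86 (adjusted p = 0.679 from limma), with degenerative pool A at 10.43 and the other degenerative pools at 8.99 and 8.68, against 8.58, 8.34 and 8.60 in blastocyst pools A, B and C. Among 6 tested genes that use cholesterol or oxysterols, 3 had lower and 3 higher means, with CH25H among the higher ones at a difference of 0.01 near the floor. CYP11A1, which turns cholesterol into pregnenolone, was at 7.88, 7.78 and 7.53 in degenerative pools A, B and C, against 9.03, 8.69 and 8.76 in blastocyst pools A, B and C. It was the one called by SAM at 15%, with a difference of -1.10 (adjusted p = 0.348 from limma).

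The genes whose profile over the 6 pools was nearest to the mean profile of the 8 sterol enzyme genes were found from the root mean square distance between centred values. They were PLS1, an actin-bundling protein, at a distance of 0.105 log2 units, AKR1B1, aldose reductase, at 0.126, LRRC1, a scaffold protein, at 0.138, NCK1, an adaptor protein, at 0.139, and SERPINC1, antithrombin, at 0.152. The sterol enzyme genes themselves, which form the mean profile, lay between 0.117 for MSMO1 and 0.314 for CYP51A1. PLS1 was at 13.39, 13.56 and 13.70 in degenerative pools A, B and C, against 15.02, 14.46 and 14.33 in blastocyst pools A, B and C. PLS1 thus lay nearer to the mean profile than any of the enzymes, with the blastocyst pools in the order A, B, C and a difference of -1.06 (limma, adjusted p = 0.451).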

How the data were processed

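Pools of degenerative embryos and of blastocysts were grouped by their titles. The deposited values are log2 expression per probe set. The authors computed them by GCRMA, listed as version 2.14.1 by the submitters, which corrects the background from probe sequence, normalizes by quantiles and summarizes by median polish. Values cannot fall below the floor of 2.12, so differences between pools that lie there are lost. Each array had 27.4% to 28.6% of its probe sets within 0.01 of it. Above the floor, dim probe sets did not always give smaller differences. Those of FDFT1 and HMGCS1 gave larger ones than the brightest, and those of MVK went both ways. Arrays have no read depth, and their number limits the precision. Of 24036 probe sets, 18937 were tested, after removal of 20 controls and of 5079 that did not vary. Symbols came from the platform's annotation, checked against RefSeq gene names (ARS-UCD2.0). Group differences were estimated in R 4.3.3 by limma 3.58.1 with moderated variances, and p-values were adjusted by Benjamini-Hochberg over everything tested, with a threshold of 0.15 as in the methods. The SAM procedure was rewritten from the description of siggenes, over all 20 relabelings, with a fudge factor of 1.03e-08, and called 67 probe sets at 15% and 883 at 25%. Its permutation p-values compare a probe set with the statistics of all probe sets over all relabelings. The 20 relabelings of a single probe set could not give values as small as those printed. Both tests were run on simulated data with independent noise and 200 changed probe sets. Those data held no outlying pool, so the run does not speak for that case. The p-values measure the spread between pools.

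Every member probe set is named, as are up to 3 genes with the smallest limma p in each role and the 5 genes of nearest profile. For genes with several probe sets, the one with the highest mean was used. Any further gene was picked with its values in view. The members, lists and tests were chosen with earlier results of these data known, and FDFT1, CYP51A1, CYP11A1 and SERPINC1 were picked by the study from these arrays. From the same arrays the study also reported a gene set of steroid biosynthesis as enriched in blastocysts. Cholesterol metabolism and steroid biosynthesis were among its enriched gene ontology terms. The lower signals of the pathway described here are thus no independent finding. For FDFT1 and SERPINC1 the study also reports lower expression by real-time RT-PCR in separate pools. Those values were normalized to GAPDH, which the study describes as largely invariable on the arrays. Its signal here was 0.45 higher in degenerative embryos, with groups that did not overlap. The part of this in the RT-PCR values was not tested. No sequences were at hand, so none are shown.

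Nothing states that pools of the same letter share a day. Their deviations from the group means nevertheless correlated over probe sets, with r of 0.373 (A), 0.180 (B) and 0.275 (C). Degenerative B correlated more with blastocyst C, at 0.374, so the letters mark the A pools more clearly than the others. As all 3 were above 0.1, the letters were taken as pairs in an alternative fit. Deviations sum to 0 within a group, so a correlation of the A pools by itself raises those among the B and C pools. The values therefore do not show that the B or C pools are pairs.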

Additional observations from a re-analysis of the deposited data

How the results depend on the processing

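All 9 sterol enzyme probe sets above the floor kept a lower mean in degenerative embryos under the alternatives run, which leaving out a pool could not have changed, and 1 adjusted limma p came to at most 0.15, that of FDFT1 without degenerative pool A. The count of sterol enzyme probe sets called by limma was 0 with a threshold of 0.25, with array median centring, with the filter on dim probe sets, with an intensity trend and robust variances and with all non-control probe sets. It was also 0 with the replicate block, a paired fit by pool letter, which changed no call, and between 0 and 1 with 1 pool left out. The count called by SAM at 15% was 0 with array median centring (12 called of all probe sets), 7 with probe sets under a mean of 5 removed (279 of 11316), 8 where false calls were counted by their median over relabelings (807 of 18937), and 0 without any 1 pool (0 to 1 of all). At 25% it was between 0 and 8 with 1 pool left out (0 to 1872 of all), where fewer relabelings are possible. The cause of the other shifts was not tested. The median difference over the 8 genes lay between -1.39 and -0.95 with 1 pool left out and at -1.23 with array median centring. With centring, 8 probe sets did not overlap between groups in place of 9. The 3 probe sets at the floor limit LSS and FDFT1, and no probe set speaks for SC5D.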
